A study of Felis catus with 8 samples.

Results

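The glutathione transferases described here are 10 genes, GSTA3, GSTA4, GSTM3, GSTP1, GSTO1, GSTK1, GSTZ1, MGST1, MGST2 and MGST3, of 17910 genes tested in cat liver. They were chosen by name, as the family of GSTA3, and GSTA3 itself was chosen because monosodium glutamate (MSG) went with opposite differences in it on the 2 base diets. Their members are the probe sets that the annotation of the array gives to exactly 1 gene, 97 of 257101 in all. Liver of male domestic cats aged 9 months was hybridised to human whole-transcript arrays, 2 arrays for each of 4 diets. The control cats ate standard chow, and the MSG cats ate chow with MSG added at 1.125%. The trans-fat/HFCS cats ate a diet with trans fat at 8.6% and high-fructose corn syrup (HFCS) at 24%, and the combined diet had all these additions. In every group the dam ate the same diet as her sons from 3 weeks before mating through nursing. Each array is labelled as a different numbered cat, but litters and any pooling of RNA are not stated, and the study text speaks of 4 to 5 livers a diet, so p-values measure the spread between arrays, which may be partly technical.

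Glutathione transferases join the tripeptide glutathione to reactive, electron-poor molecules, which makes them soluble and ready for export, and liver is one of the tissues richest in them. Soluble members fall into classes (alpha, mu, pi, omega, zeta and others), GSTK1 belongs to mitochondria and peroxisomes, and the MGST proteins sit in membranes. Several classes also reduce lipid peroxides or isomerise steroids and amino acid breakdown products, and many of the genes respond to the oxidant-sensing transcription factor NFE2L2 (NRF2).

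The arrays carry human probes, so cat RNA is seen only where it is near enough in sequence, and the brightness of different probe sets cannot be compared. Of the 97 probe sets, 55 lay above the median of all probe sets on the array (log2 intensity 2.43) and were kept, between 3 for GSTA3 and 8 each for GSTA4, GSTP1 and GSTZ1. All 10 genes therefore had a value, the mean log2 intensity of the kept probe sets. Array medians lay between 5.25 and 5.28 on the intensity scale. Of 11 skeletal muscle markers, all measured, the median log2 value exceeded the control mean by 1.96 and 1.97 on the 2 trans-fat/HFCS arrays and lay within 0.12 of it elsewhere. Their summed intensity was 709 to 750 there, 187 to 189 on control arrays, 195 to 202 on MSG arrays and 192 to 204 on combined arrays. Of 10 hepatocyte markers 9 were measured, with summed intensities of 4570 to 4667 on control, 4243 to 4907 on MSG, 4086 to 4329 on trans-fat/HFCS and 4211 to 4637 on combined arrays. Fewer cells of a type and less RNA per cell cannot be told apart in whole liver.

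GSTA3 encodes an alpha-class transferase known for isomerising steroid precursors. Its mean log2 intensity was 8.15 and 7.62 on the control arrays, 9.51 and 8.82 on the MSG arrays, 8.38 and 8.48 on the trans-fat/HFCS arrays and 6.80 and 6.95 on the combined arrays. The MSG arrays were highest and the combined arrays lowest, an order that follows in part from the choice of GSTA3 for its interaction. The share of all genes with this order was not counted. As deposited, the values gave a difference of 1.28 on the log2 scale for MSG on chow, of -1.55 for MSG on trans fat and HFCS, and so an interaction of -2.83. Since GSTA3 was picked on these arrays for that interaction, its values are a description with no test.

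The pattern of GSTA3 came from 1 of its 3 kept probe sets. Probe set 8127090 read an intensity of 54.2 and 19.9 on control arrays, 632 and 218 on MSG arrays, 98.1 and 104 on trans-fat/HFCS arrays and 3.47 and 4.49 on combined arrays. The combined arrays were at log2 1.79 and 2.17, below the median of all probe sets, so the size of a difference that uses them is not an exact value. With those readings set at the median, an alternative added after seeing the data, the interaction of the gene was -2.68 and its difference for MSG on trans fat and HFCS was -1.40. The mean of the other 2 kept probe sets of GSTA3 was 9.34 and 9.27 on control arrays, 9.62 and 9.34 on MSG arrays, 9.26 and 9.38 on trans-fat/HFCS arrays and 9.31 and 9.35 on combined arrays. This mean overlapped across the diets and gave an interaction of -0.16, while probe set 8127090 with its low readings at the median gave -7.73. Taken singly, probe set 8127089 was lower on the 4 arrays with trans fat and HFCS (11.89 to 12.12) than on the other 4 (12.18 to 12.49), as 5.08% of all kept probe sets were. Probe set 8127092 was higher on the 6 arrays of the other diets (6.43 to 6.74) than on both control arrays (6.35 and 6.36), as 4.46% were. Stellate cell markers (8 of 8 measured) shifted by a median of -0.48 and -0.46 on the combined arrays, and skeletal muscle markers had a median interaction of -2.08, and their part in the GSTA3 pattern was not tested. The 3 probe sets that were not kept read between log2 1.78 and 3.28.

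**Figure D1:**
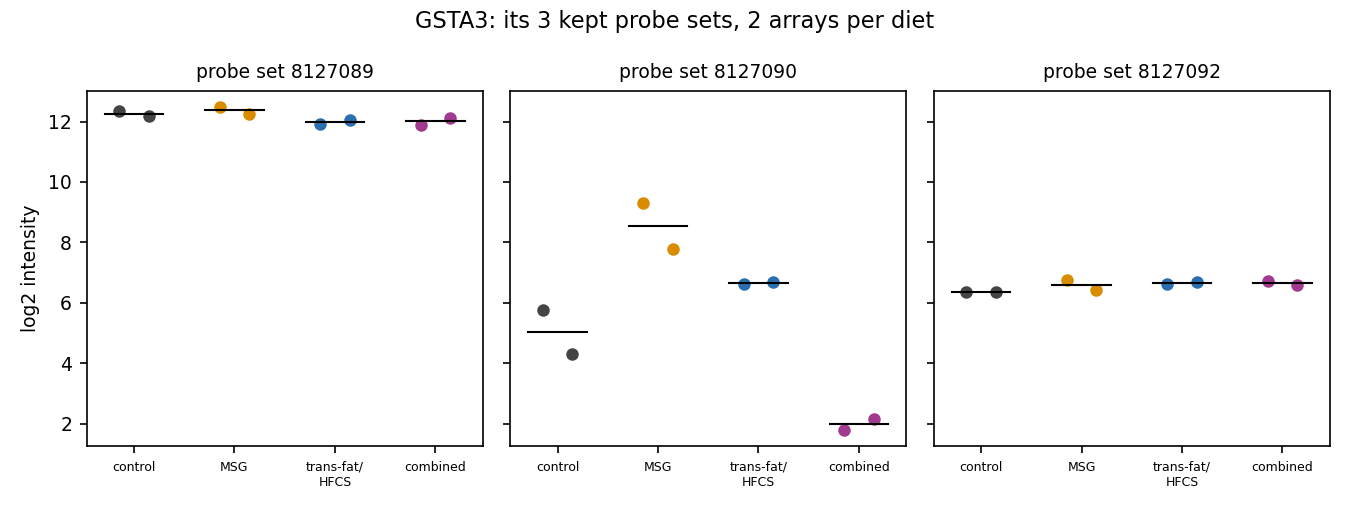
Log2 intensity (vertical axis) of the 3 kept GSTA3 probe sets on each array, by diet (horizontal axis); points are arrays and bars are means of 2 arrays. Probe set 8127090 runs from 1.79 on a combined array to 9.30 on an MSG array, while the other 2 each span less than 1 unit.

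Genes whose values over the 8 arrays were most like those of GSTA3 were sought among 2837 genes with at least 2 kept probe sets and a range of at least 1 log2 unit. The 5 most alike were SPAG5 (a spindle protein, r = 0.95), AGXT2 (a mitochondrial aminotransferase, r = 0.94), RBMS3 (an RNA-binding protein, r = 0.94), FBXL4 (an F-box protein, r = 0.92) and ETNK2 (an ethanolamine kinase, r = 0.92). The coefficients are Pearson's over the same 8 arrays that chose GSTA3, given as a description. In SPAG5 the mean of 3 probe sets was 4.23 and 4.28 on control, 4.83 and 4.64 on MSG, 4.50 and 4.56 on trans-fat/HFCS and 3.44 and 3.36 on combined arrays, the same order of diets as in GSTA3. None of these 5 is a transferase of the family.

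Of the alpha-class neighbours in name, GSTA1 had 3 kept probe sets, GSTA2 had 1 and GSTA5 had 4. GSTA1 stood at 4.43 and 4.69 on control, 4.70 and 4.85 on MSG, 4.87 and 4.73 on trans-fat/HFCS and 4.44 and 4.60 on combined arrays, an interaction of -0.50 (SE 0.25) that did not pass (adjusted p = 0.60 in limma). GSTA2 stood between 8.86 and 9.37 on the 8 arrays. GSTA5 was at 3.58 and 3.29 on control, 4.00 and 3.75 on MSG, 3.07 and 3.59 on trans-fat/HFCS and 3.44 and 3.84 on combined arrays, with the combined arrays not lowest. Alpha-class genes are close in sequence, so signal under these symbols cannot be assigned to a single cat gene. Of the 10 symbols, 9 were matched in the table of cat genes used for names, and GSTA3 was not.

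GSTA4, the alpha-class transferase that clears 4-hydroxynonenal, a toxic product of lipid peroxidation, was lower on every diet than on control. Its mean log2 intensity over 8 kept probe sets was 9.59 and 9.54 on control arrays, 8.94 and 8.51 on MSG arrays, 8.29 and 8.70 on trans-fat/HFCS arrays and 8.55 and 8.59 on combined arrays. Both control arrays lay above all 6 others, a separation in this direction that 5.66% of all genes had. The level was 2.1-fold lower on the trans-fat/HFCS diet than on control (log2 -1.07, SE 0.21), and this fall passed (adjusted p = 0.034 in limma). It was 1.79-fold lower on the MSG diet (log2 -0.84, SE 0.21, adjusted p = 0.25 in limma) and 1.99-fold lower on the combined diet (log2 -0.99, SE 0.21, adjusted p = 0.06 in limma), and neither passed. These 3 comparisons share the same 2 control arrays. Among the 3 diets other than control the arrays overlapped, with the combined diet at -0.15 (SE 0.21) against the MSG diet and 0.08 (SE 0.21) against the trans-fat/HFCS diet.

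In GSTA4 the probe sets moved together, unlike in GSTA3. All 8 kept probe sets were lower than control on all 3 diets, and in each of the 8 every array of the other diets lay below both control arrays. Over all kept probe sets, 5.19% showed this separation, but probe sets of 1 gene share their arrays and are not independent. Probe set changes on the trans-fat/HFCS diet ran from -0.43 to -2.72 with a median of -0.70, and on the MSG diet from -0.44 to -1.58 with a median of -0.68. On the combined diet they ran from -0.62 to -1.67 with a median of -0.89. The brightest, probe set 8127096, read log2 12.02 and 12.22 on control arrays and between 11.15 and 11.62 on the other 6. Probe set 8127101 had a single low reading of 3.90 on trans-fat/HFCS array 1, against 7.46 on array 2, and without that probe set the mean change on this diet was -0.83. None of the 8 probe sets passed by itself in limma in either main effect, the interaction or a comparison with control. An unadjusted p under 0.05 in limma was counted in the comparisons other than those of the trans-fat/HFCS diet. On the combined diet 7 of 8 had it, beside 12.1% of all kept probe sets, and in the interaction 1 had it (7.83%). In the MSG main effect these were probe sets 8127095, 8127097 and 8127105, beside 6.8% of all kept probe sets. On the MSG diet they were 8127095, 8127097, 8127098 and 8127103, beside 6.24%.

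**Figure D2:**
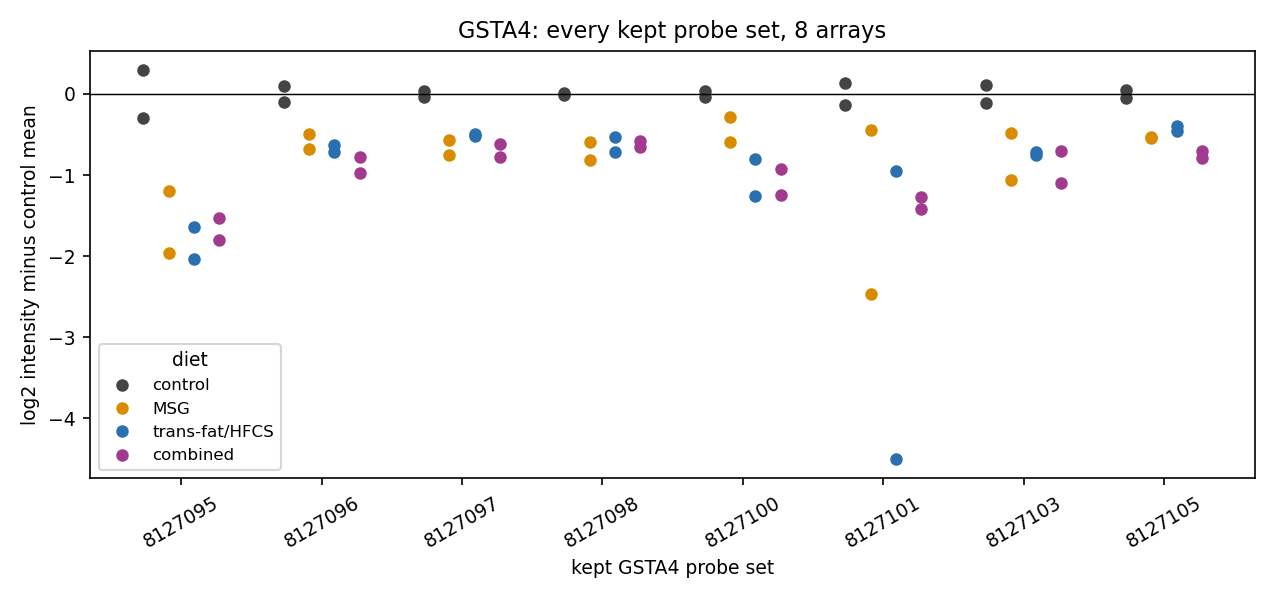
Log2 intensity minus the control mean (vertical axis) for each kept GSTA4 probe set (horizontal axis), with 1 point per array coloured by diet. In all 8 probe sets the 6 arrays of the other diets lie below both control arrays, and probe set 8127101 has 1 trans-fat/HFCS array far below the rest.

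Averaged over diets with and without MSG, 2 of the 9 members other than GSTA3 passed for trans fat and HFCS (4 arrays against 4), GSTA4 lower and MGST3 higher. Over all genes 7.66% passed in either direction, 3.22% lower and 4.44% higher. The median change of the 9 members was 0.02, as it was for all genes tested (0.02). GSTA4 was 1.53-fold lower (log2 -0.61, SE 0.15, adjusted p = 0.039 in limma). The call ended when any single array except MSG array 2 or trans-fat/HFCS array 2 was dropped, with changes between -0.62 and -0.50 and adjusted p between 0.066 and 0.12. Without both trans-fat/HFCS arrays, the contrast left is that of combined and MSG diets, which holds no control array, at -0.15 (adjusted p = 0.74 in limma). Skeletal muscle markers were high on the trans-fat/HFCS arrays. On the combined arrays their median was within 0.12 of control, and GSTA4 was -0.99 against control. The part of skeletal muscle in the lower GSTA4 was not tested. Hepatocyte markers shifted by a median of -0.26 to -0.06 from the control mean on the trans-fat/HFCS arrays and of -0.24 to 0.00 on the combined arrays, and their part in the lower GSTA4 was not tested.

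MGST3, a membrane transferase with glutathione peroxidase activity, was higher with trans fat and HFCS in the mean of its kept probe sets, but not in the brightest of them. Its mean over 4 kept probe sets was 3.88 and 3.54 on control arrays, 3.65 and 4.20 on MSG arrays, 4.82 and 4.58 on trans-fat/HFCS arrays and 4.68 and 4.22 on combined arrays. All 4 arrays with trans fat and HFCS lay above the other 4, as in 8.29% of all genes. The main effect was 1.69-fold (log2 0.76, SE 0.17, adjusted p = 0.034 in limma). Against control the change was 0.99 (SE 0.25) on the trans-fat/HFCS diet and 0.74 (SE 0.25) on the combined diet, and neither passed (adjusted p = 0.073 and 0.19 in limma). The main effect did not pass without any 1 array other than MSG array 2 or combined array 2 (changes of 0.62 to 0.84, adjusted p between 0.063 and 0.12). Without both trans-fat/HFCS arrays the contrast left, combined against MSG, was 0.52 (adjusted p = 0.34 in limma).

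The rise of MGST3 lay mostly in probe set 7906986. This probe set read log2 3.15 and 3.12 on control arrays, 2.89 and 3.37 on MSG arrays, 6.30 and 6.04 on trans-fat/HFCS arrays and 5.37 and 4.62 on combined arrays. All 4 arrays with trans fat and HFCS were high and the other 4 low, with a main effect of 2.45 (SE 0.25, limma adjusted p = 0.008), and 5.87% of all kept probe sets separated this way. Trans fat and HFCS without MSG gave a change of 3.04 over control (SE 0.35, limma adjusted p = 0.021). The other 3 kept probe sets had a mean main effect of 0.19. The brightest of them, probe set 7906983, had -0.18 (SE 0.21), so the direction of MGST3 turns when the brightest probe set stands for the gene. The others read low, 7906982 between log2 1.96 and 2.91 and 7906984 between 2.05 and 3.69, beside a median of 2.43 for all probe sets. The mean of 7906982 exceeded that median only on the trans-fat/HFCS arrays (2.89), so it was kept through the diet where it is highest. On the combined diet probe set 7906986 was 1.86 (SE 0.35) above control on the log2 scale, which did not pass (limma adjusted p = 0.13). Skeletal muscle markers stood high with trans fat and HFCS alone, and on the combined arrays they lay within 0.12 of control, and their part in the MGST3 values was not tested.

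**Figure D3:**
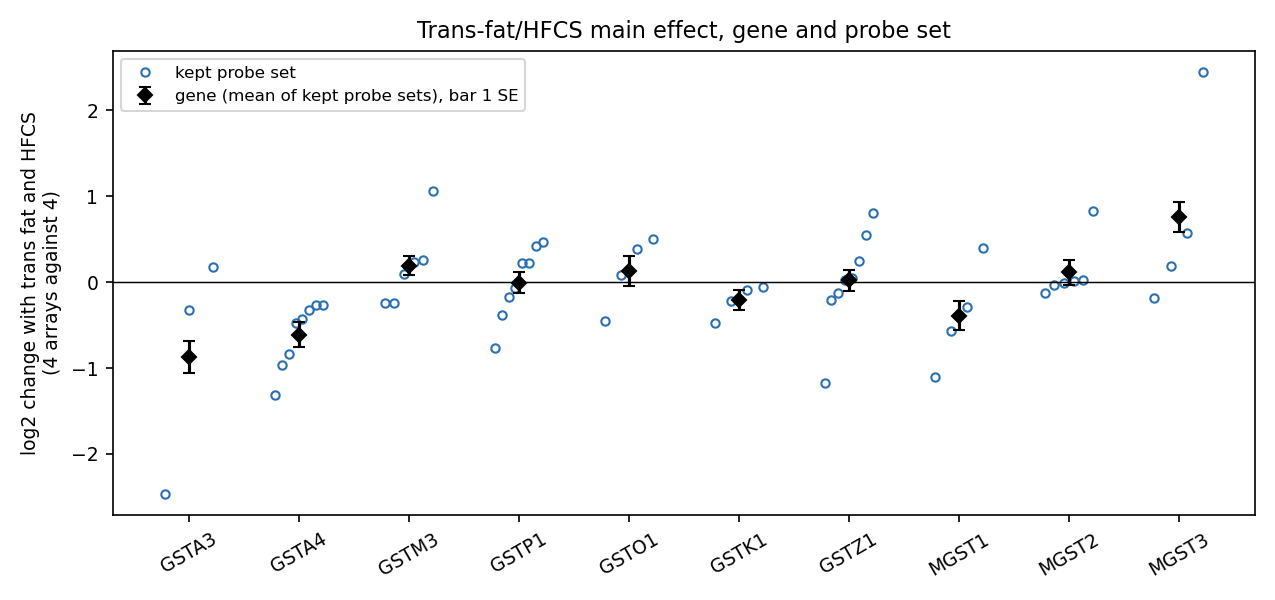
Log2 change with trans fat and HFCS, 4 arrays against 4 (vertical axis), for each of the 10 genes (horizontal axis); open circles are kept probe sets and diamonds are gene values with 1 SE. All 8 GSTA4 circles lie below 0, while GSTA3 and MGST3 each have 1 circle far from the others.

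Among the 52 kept probe sets of the 9 other members, 2 passed for the trans-fat/HFCS main effect, beside 2.45% of all kept probe sets. Against control 1 of the 52 passed on the trans-fat/HFCS diet, beside 0.927%, and none passed on the combined diet (0.0645% of all) or the MSG diet (0.12%). None passed for the MSG main effect (0.151% of all) or the interaction (0.0618%). At an unadjusted p under 0.05 in limma there were 11 of 52 on the combined diet (12.1% of all kept probe sets), 8 on the MSG diet (6.24%), 8 in the MSG main effect (6.8%) and 5 in the interaction (7.83%). Of the 2 that passed for the trans-fat/HFCS main effect, 1 was the MGST3 probe set above. The other was probe set 7918391 of GSTM3, a mu-class transferase. This GSTM3 probe set read log2 4.64 and 4.70 on control, 5.08 and 5.26 on MSG, 5.98 and 5.97 on trans-fat/HFCS and 5.89 and 6.11 on combined arrays. It rose by 1.07 (SE 0.18, adjusted p = 0.036 in limma). The 4 arrays of both trans-fat diets lay above the other 4, as in 5.87% of all kept probe sets. This call ended without any 1 of the 8 arrays (adjusted p between 0.081 and 0.14, changes of 1.01 to 1.12).

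Another GSTM3 probe set went a different way. Probe set 7918387 read 5.54 and 5.31 on control, 5.01 and 4.94 on MSG, 3.81 and 4.00 on trans-fat/HFCS and 5.85 and 6.18 on combined arrays, lowest on trans fat and HFCS without MSG. It was picked out after its values were seen, and the share of all kept probe sets with this order was not counted. Relative to control the trans-fat/HFCS diet differed by -1.52 (SE 0.27), which did not pass (limma adjusted p = 0.067). The gene as a whole, the mean of 6 kept probe sets, stayed between 5.75 and 6.16 on the 8 arrays, with a trans-fat/HFCS main effect of 0.19 (SE 0.12, adjusted p = 0.34 in limma).

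**Figure D4:**
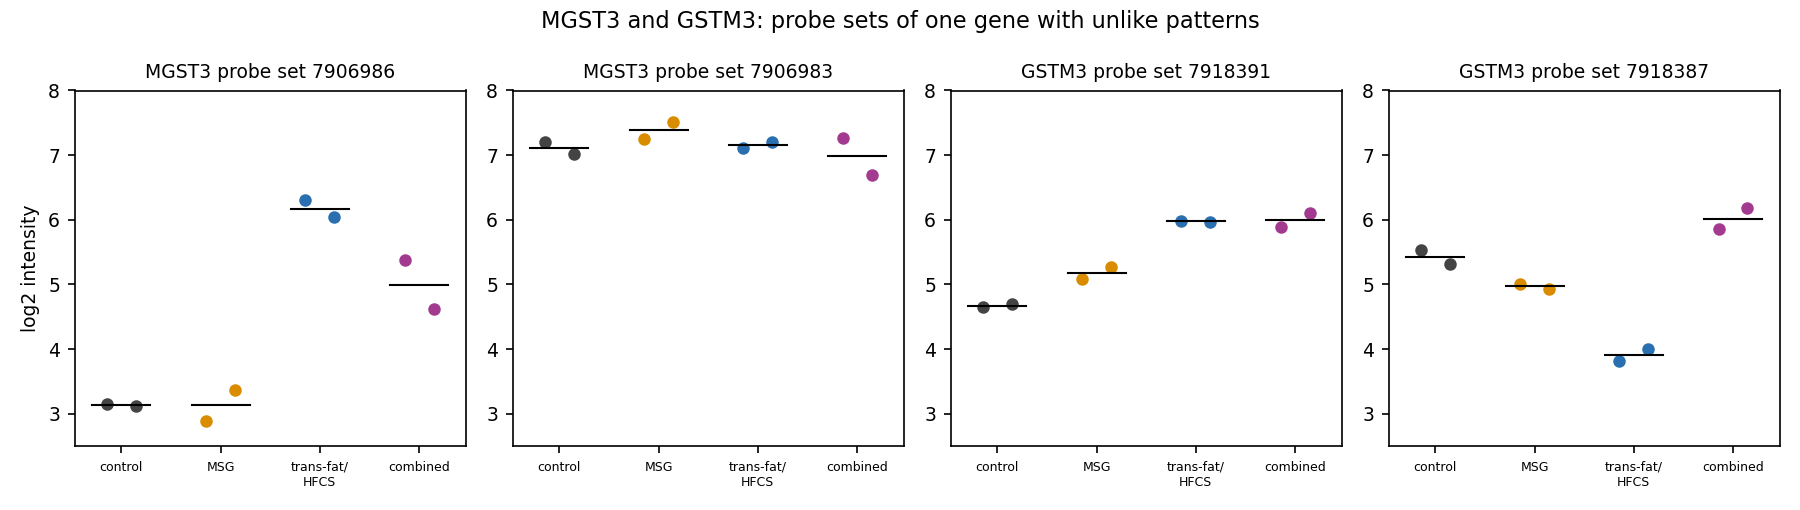
Log2 intensity (vertical axis) by diet (horizontal axis) of 2 MGST3 and 2 GSTM3 probe sets; points are arrays and bars are means of 2 arrays. MGST3 probe set 7906986 is high on all 4 arrays with trans fat and HFCS, and the GSTM3 probe sets 7918391 and 7918387 part on the trans-fat/HFCS diet.

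MGST1, the abundant microsomal transferase of liver, had 7.34 and 7.57 on control, 7.52 and 7.13 on MSG, 7.23 and 6.64 on trans-fat/HFCS and 7.15 and 6.98 on combined arrays. Its main effect of trans fat and HFCS was -0.39 (SE 0.17), not past the threshold (limma adjusted p = 0.19). Of its 4 kept probe sets 3 were negative, the largest at -1.10, and 1 was positive at 0.39. MGST2, a membrane transferase that can make leukotriene C4, ranged from 5.09 on an MSG array to 5.77 on a combined array, with a main effect of 0.11 (SE 0.15).

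GSTZ1, the zeta-class isomerase of tyrosine breakdown, had 5.34 and 5.40 on control, 5.59 and 5.25 on MSG, 5.07 and 5.04 on trans-fat/HFCS and 5.86 and 5.70 on combined arrays. Both combined arrays were above the other 6 and both trans-fat/HFCS arrays below them, an order picked out after its values were seen, which 59 of 17910 genes had (0.329%). The combined diet differed from the trans-fat/HFCS diet by 0.73 (SE 0.18, limma adjusted p = 0.27). The MSG main effect of GSTZ1 was 0.39 (SE 0.12, adjusted p = 0.45 in limma) and its interaction 0.68 (SE 0.25, adjusted p = 0.47 in limma), and neither passed. The mean rests on probe sets that differ, with interactions from -0.98 to 3.12 over 8 probe sets and a median of 0.46.

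The remaining members varied little. GSTP1, the pi-class transferase, ranged from 5.74 to 6.13, with a trans-fat/HFCS main effect of -0.01 (SE 0.12). Its probe set 7941938 was between 8.83 and 8.86 without trans fat and HFCS and between 9.08 and 9.45 with them. Of all kept probe sets 5.87% separated this way. The change of 0.47 (SE 0.18) did not pass (adjusted p = 0.26 in limma). It was the highest of the 8 kept GSTP1 probe sets, of which 4 were positive and 4 negative, down to -0.76. GSTO1, the omega-class transferase that recycles dehydroascorbate, was 5.23 and 5.24 on control arrays and between 5.29 and 5.98 on the other 6, all above control, a separation that 6.01% of all genes had, with no comparison past the threshold in limma. GSTK1 ranged from 6.43 to 6.87 and had a main effect of -0.21 (SE 0.12), with all 4 kept probe sets negative, from -0.47 to -0.053. Its 4 arrays with trans fat and HFCS lay below the other 4, as in 6.72% of all genes, with 6.74 on the nearest of them beside 6.75 on a control array. The interval that a missed threshold leaves is wide here, with 2 arrays a diet.

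**Figure D5:**
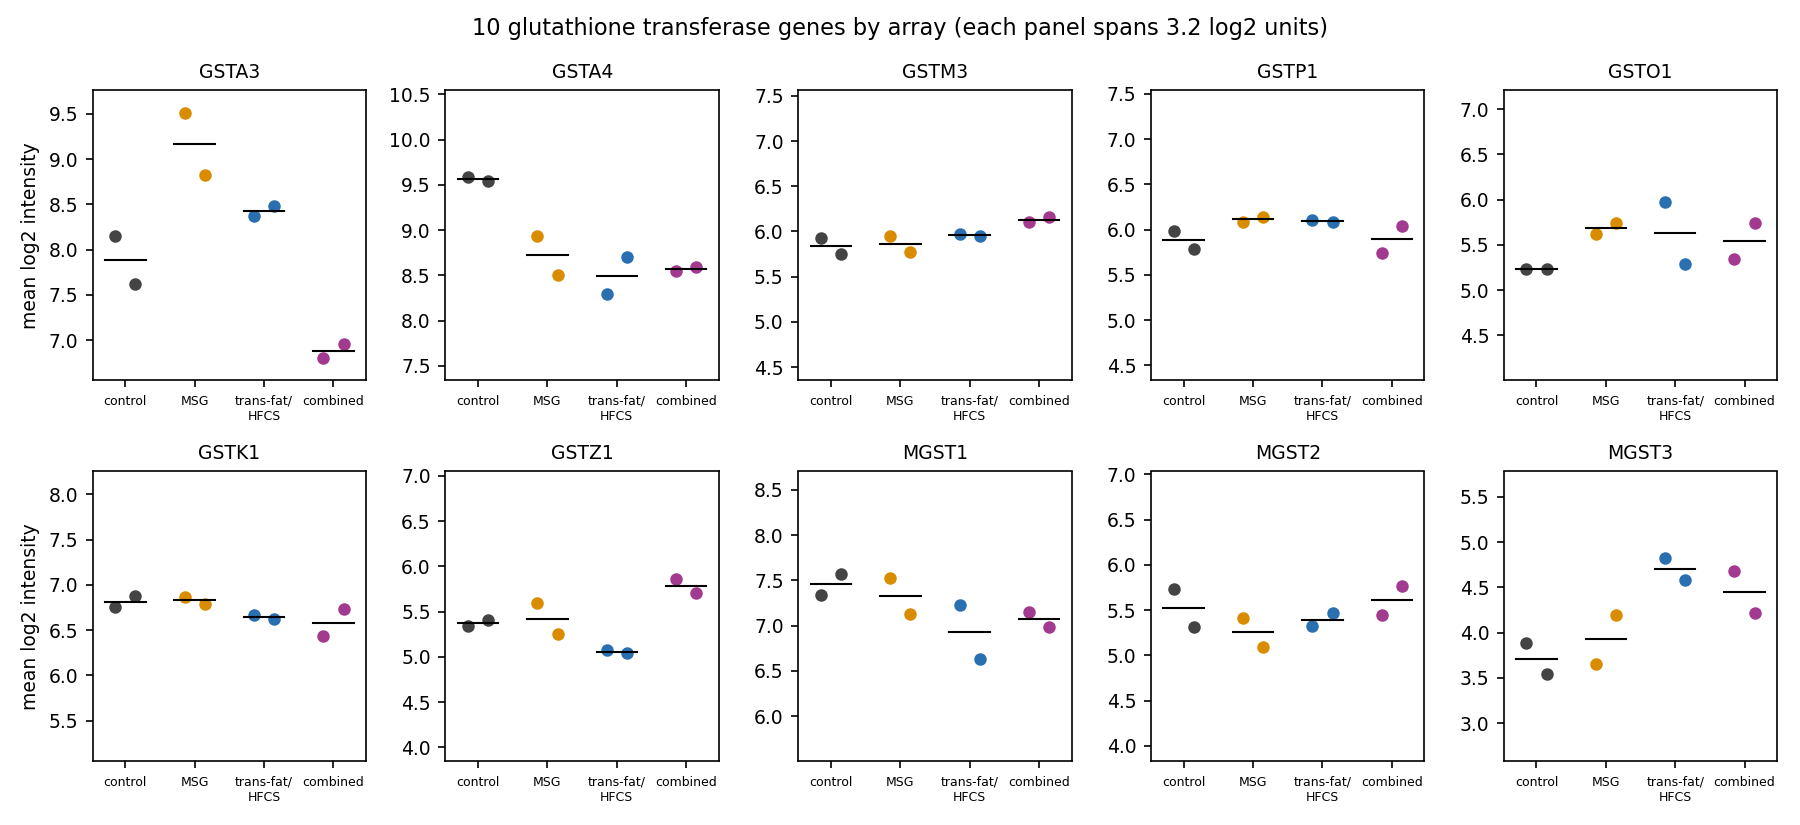
Mean log2 intensity of the kept probe sets (vertical axis, each panel spanning the same number of log2 units) of the 10 genes on each array by diet; points are arrays and bars are means of 2 arrays. GSTA4 is highest on the control arrays, MGST3 is higher on the 4 arrays with trans fat and HFCS, and most other genes move by less than 1 unit.

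For MSG, none of the 9 members other than GSTA3 passed in limma. At an unadjusted p under 0.05, 2 of 9 stood out in the main effect (GSTA4 and GSTZ1), 2 in the interaction (the same 2 genes) and 1 on the MSG diet against control (GSTA4). At that same unadjusted threshold 7.91%, 9.07% and 7.64% of all genes stood out. After adjustment 0.329% of all genes passed for MSG, 0.151% for the interaction and 0.296% for the MSG diet against control. Against control, 1 of 9 passed on the trans-fat/HFCS diet (GSTA4), beside 2.48% of all genes in either direction and 1.02% lower, and none on the combined diet, beside 1.16%, with 3 of 9 at an unadjusted p under 0.05, as were 16.5% of all genes. GSTA4 had an interaction of 0.92 (SE 0.29, adjusted p = 0.41 in limma), positive in all 8 kept probe sets. These probe sets share the same arrays, with both control arrays above all others in each, so their common sign is not independent. The call of GSTA4 on the trans-fat/HFCS diet ended without either control array or either trans-fat/HFCS array, with changes between -1.27 and -0.87 and adjusted p between 0.067 and 0.19.

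Other genes that make, use or export glutathione were counted in 4 lists for the trans-fat/HFCS main effect. In this comparison 7.66% of all genes passed, 3.22% lower and 4.44% higher, and the counts below are to be read beside those shares. Among 13 measured other transferases and related membrane proteins, 1 fell and none rose, with a median of 0.02. It was the theta-class GSTT1 (log2 -0.43, SE 0.11, adjusted p = 0.045 in limma), a call that ended without any 1 of the 8 arrays. Among 20 genes of glutathione synthesis, breakdown and export, 1 fell and none rose, with a median of -0.17. It was GCLC, the catalytic subunit of the rate-limiting ligase of glutathione synthesis, at 6.34 and 6.43 on control, 6.87 and 6.62 on MSG, 5.83 and 5.86 on trans-fat/HFCS and 6.23 and 6.27 on combined arrays (log2 -0.52, SE 0.12, adjusted p = 0.031 in limma). The SD between the 2 arrays of a diet ran from 0.022 on trans-fat/HFCS to 0.18 on MSG. The trans-fat/HFCS arrays were lowest, and the share of all genes with this order was not counted.

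Among 19 measured genes listed as enzymes that use or reduce glutathione or supply NADPH, 3 fell and none rose, with a median of 0.02. These were the NADPH producers PGD (log2 -0.88, SE 0.21) and ME1 (-0.64, SE 0.13) and HPGD, which inactivates prostaglandins (-0.58, SE 0.11). Their adjusted p in limma were 0.041, 0.021 and 0.018. None of the 3 is a glutathione enzyme in the strict sense, and HPGD does not supply NADPH, so it falls outside the name of its list. ME1 also fell on the combined diet against control (log2 -0.97, SE 0.18, adjusted p = 0.043 in limma), and HPGD on trans fat and HFCS without MSG (-0.82 relative to control, SE 0.16, limma adjusted p = 0.033). The ME1 call on the combined diet ended without any 1 of the 8 arrays (adjusted p between 0.063 and 0.26), and this HPGD call ended without any 1 control, MSG or trans-fat/HFCS array (0.052 to 0.2).

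Among 16 measured regulators of transferase genes and their targets, 2 rose and 1 fell, with a median of 0.07. NFE2L2 fell by 0.69 on the log2 scale (SE 0.16, adjusted p = 0.033 in limma), and KEAP1, which targets the NFE2L2 protein for breakdown, rose by 0.56 (SE 0.14, adjusted p = 0.046 in limma). NFE2L2 was 6.43 and 5.93 on control, 6.56 and 6.41 on MSG, 5.31 and 5.76 on trans-fat/HFCS and 5.71 and 5.78 on combined arrays. Its 4 arrays with trans fat and HFCS lay below the other 4, as in 6.72% of all genes. KEAP1 was 4.28 and 4.57 on control, 4.60 and 4.73 on MSG, 5.10 and 5.06 on trans-fat/HFCS and 4.91 and 5.36 on combined arrays. Here the 4 arrays with trans fat and HFCS lay above the other 4, as in 8.29% of all genes. CYP1A1, a target of the aryl hydrocarbon receptor, rose by 0.57 (SE 0.12, adjusted p = 0.027 in limma). No other gene of this list passed, and the listed targets NQO1, HMOX1, TXNRD1 and SRXN1 were among those measured. Each of the 8 calls of this comparison in the 4 lists ended when a single array was dropped, for at least 5 of the 8 arrays. With the brightest probe set GCLC (0.087), HPGD (0.39) and ME1 (0.19) turned sign and did not pass. Without both trans-fat/HFCS arrays none of these 8 genes passed, with NFE2L2 at -0.74 and KEAP1 at 0.47 between the combined and MSG diets. In none of the 4 lists did a gene pass for the MSG main effect or the interaction in limma, with 4, 2, 0 and 0 genes at an unadjusted p under 0.05 for MSG in the lists of synthesis and export, using enzymes, other transferases and regulators, and 1, 0, 1 and 0 for the interaction. Over all genes these unadjusted shares were 7.91% and 9.07%.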

How the data were processed

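Deposited values are intensities per probe set on a linear scale, between 2.22 and 22966, already normalized; GCRMA, Partek and hg19 are named, without versions or roles, per the submitters' processing notes. They were log2 transformed here. Gene names are those of the platform annotation; probe sets with several genes or none were left out, no coordinates or sequences were used, and 9 of the 10 symbols were found in the cat gene table F.catus_Fca126_mat1.0. Kept probe sets (mean above the median, 111624 with 1 gene) were averaged per gene. Contrasts of a 4-group model over all 8 arrays were tested, two-sided, by lmFit and eBayes of limma 3.58.1 (R 4.3.3; Benjamini-Hochberg over 17910 genes or 111624 probe sets, threshold 0.05); errors are moderated standard errors. The steps were tested on simulated data. Members, gene lists and alternatives were chosen with earlier results of these data known. All 10 members are named; from the lists, every gene past the threshold for trans fat and HFCS is named, and genes like GSTA3 are the 5 with the highest r. The alpha-class GSTA1, GSTA2 and GSTA5 and the probe sets of members were singled out after their values were seen. Total RNA input was 250 ng per the labels' protocols. The number of arrays, 2 a diet, limits the precision.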

Additional observations from a re-analysis of the deposited data

Results flagged for a closer look

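GSTA3 differed between the base diets in its response to MSG. The difference was positive on chow and negative on trans fat and HFCS, an interaction of -2.83 on the log2 scale in 2 arrays a diet. GSTA3 was chosen for this value, so it has no independent test here. The value rests on probe set 8127090, and the other 2 kept probe sets gave -0.16.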

How the results depend on the processing

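Alternatives were no filter, a 75th percentile filter, the brightest probe set, quantile normalization, log2(value + 8), a replicate block, each array left out and, added after seeing the data, leaving out both trans-fat/HFCS arrays and, for GSTA3, setting low readings at the median (interaction -2.68). Members called for trans fat and HFCS (2 of 9) were 1 with no filter, 1 with the 75th percentile filter, 0 with the brightest probe set, 0 with the replicate block and 0 without both trans-fat/HFCS arrays, and 0 to 2 with 1 array left out. On that diet against control (1 of 9) they were 0 with no filter, 0 with the brightest probe set, 0 with the replicate block, 2 with log2(value + 8) and 0 to 1 with 1 array left out. On the combined diet 1 was called with log2(value + 8), GSTA4, and 0 with any 1 array left out. For MSG, the interaction and MSG against control none was called under any alternative. Member probe sets called (2) were 1 with the replicate block and 1 with any 1 array left out, and 0 throughout for MSG and the interaction.

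With the brightest probe set MGST3 turned to -0.18, GSTA3 on the trans-fat/HFCS diet to -0.28 and its MSG main effect to 0.068, and GCLC (0.087), HPGD (0.39, and 0.26 against control) and ME1 (0.19, and 0.26 on the combined diet) turned too. The MSG main effect of GSTA3 (-0.13) also turned with log2(value + 8) (0.059), and ran from -0.31 to 0.038 with 1 array left out. The cause was not tested. Leaving out both trans-fat/HFCS arrays left only MSG against control (1.28), which is a different contrast and not a turn of the main effect.

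Gene counts moved over 1.5 times as follows. Where both trans-fat/HFCS arrays were left out, the count for trans fat and HFCS is that of combined against MSG. The count for MSG is then that of MSG against control. For trans fat and HFCS (1372) they were 2182 with the brightest probe set and 233 without both trans-fat/HFCS arrays, and 443 to 1234 with 1 array left out. For MSG (59) they were 106 with the brightest probe set, 131 with log2(value + 8) and 39 without both trans-fat/HFCS arrays, and 12 to 68 with 1 array left out. For the interaction (27) they were 14 with the 75th percentile filter, 56 with the brightest probe set, 60 with log2(value + 8), 11 with the replicate block and 5 to 20 with 1 array left out. For MSG against control (53) they were 95, 102, 104 and 34 under the same 4 settings and 13 to 55 with 1 array left out. For trans-fat/HFCS against control (444) they were 834, 1120 and 846 under the first 3 and 62 to 528. For the combined diet (207) they were 513, 730, 528 and 96, and 0 to 145.

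Arrays of the same replicate number did not deviate together (correlations of deviations between -0.06 and 0.04 over the 6 pairs of diets), so the replicate block rests on a number alone. With 2 arrays a diet and human probes for cat RNA, a probe set that differs from its neighbours cannot be checked against a second measurement here.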

Other observations

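The 42 member probe sets below the median read between log2 1.47 and 3.90. The highest of these readings was a GSTM3 probe set on 1 MSG array.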
